A study of Canis lupus familiaris with 77 samples.

Results

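The miR-216 and miR-217 cluster was followed across the tissues of the beagle dog through 5 mature miRNAs. They are cfa-miR-216a, cfa-miR-216b and cfa-miR-217, which carry dog names, and rno-miR-216a-3p and rno-miR-217-3p, the opposite (3p) arms of the miR-216a and miR-217 hairpins, which carry rat names. Members were chosen by name, and the 5 make up 5 of the 650 miRNAs with at least 1 read. No further miRNA row with a read carried the name miR-216 or miR-217, so the opposite arm of the miR-216b hairpin is not analysed here.

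Small RNA was sequenced (miR-seq) from 5 untreated male Beagle dogs, 10 months old, whose organs were perfused with phosphate buffered saline before collection. The 76 libraries used here hold 5 samples of each of 14 tissues (bone marrow, brain, duodenum, heart, ileum, jejunum, kidney, liver, lung, pancreas, plasma, skeletal muscle, testis and thymus), 4 of colon and 2 of sciatic nerve. Bone marrow and plasma were taken as 2 mL samples, the plasma in K2EDTA tubes, and the skeletal muscle was quadriceps. All tissues came from the same 5 dogs, so samples of different tissues share dogs. The labels do not say which, and the tests below treat all samples as independent and measure the spread between these samples only. The study gives different accounts of how sciatic nerve RNA was pooled over dogs, and a pooled sciatic nerve library whose name matched no label was not used. All tissues were whole pieces or fluids, so fewer cells of a type and less RNA per cell cannot be told apart. The study describes RNA isolation separately for solid tissues, bone marrow and plasma. It reports low RNA integrity in plasma and bone marrow, and a lower percentage of mapped reads in bone marrow. Differences of plasma or bone marrow from the other tissues cannot be told apart from these differences in isolation and RNA quality. The study also reports low RNA integrity in some kidney samples and variable mapping of reads in thymus. It found profiles less reproducible between samples of muscle, duodenum, testis and thymus than in the other tissues.

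A miRNA gene is transcribed as a hairpin from which an enzyme cuts a duplex of 2 strands. One strand, or arm, is usually kept in the silencing complex, where it represses messenger RNAs that pair with its seed, and the opposite arm is mostly degraded. miR-216a, miR-216b and miR-217 are known as markers of the acinar cells of the exocrine pancreas, the cells that make the digestive enzymes, and have been studied in blood as signs of acinar injury. In the RefSeq gene table of the dog assembly UU_Cfam_GSD_1.0, MIR217, MIR216A and MIR216B are 3 consecutive genes on chromosome 10, next to each other in that order, and no other listed gene spans them.

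Levels are given in RPM, the count of a miRNA scaled to a library of 1000000 miRNA reads. The libraries held from 157871 to 7896424 miRNA reads with a median of 1364823. A count of 0 allows up to 3 reads, which is a level between 0.380 and 19.0 RPM depending on the library. The pancreas libraries held 675171 to 2425345 reads, so each member rested on at least 227 reads there. Pancreas 4 stood apart from the other pancreas libraries. Its chi-square per degree of freedom over all miRNAs against the other 4 was 230 to 808, compared with 50.0 to 164 among the other 6 pairs. cfa-miR-148a, the most abundant pancreas miRNA among those listed here, was at 226890 RPM in Pancreas 4 and at 355270 to 445204 RPM in the other 4, while cfa-miR-143, a smooth muscle marker, was at 38971 RPM against 14644 to 17134 RPM. Results on the members are therefore also given without this library.

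In pancreas, cfa-miR-216a was at 4535, 3927, 4006, 4242 and 4143 RPM in samples 1 to 5. cfa-miR-216b was at 4430, 5942, 4420, 6593 and 5507 RPM, and cfa-miR-217 at 3006, 3799, 3525, 6274 and 3543 RPM. The 3 dog-named members thus lay within the range of 3006 to 6593 RPM, with Pancreas 4 the highest sample for cfa-miR-216b and cfa-miR-217 but not for cfa-miR-216a. The 3p arms were lower. rno-miR-216a-3p was at 579, 408, 335, 579 and 336 RPM, with samples 1 and 4 high, and rno-miR-217-3p at 318, 351, 349, 352 and 345 RPM, with sample 1 low.

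**Figure D1:**
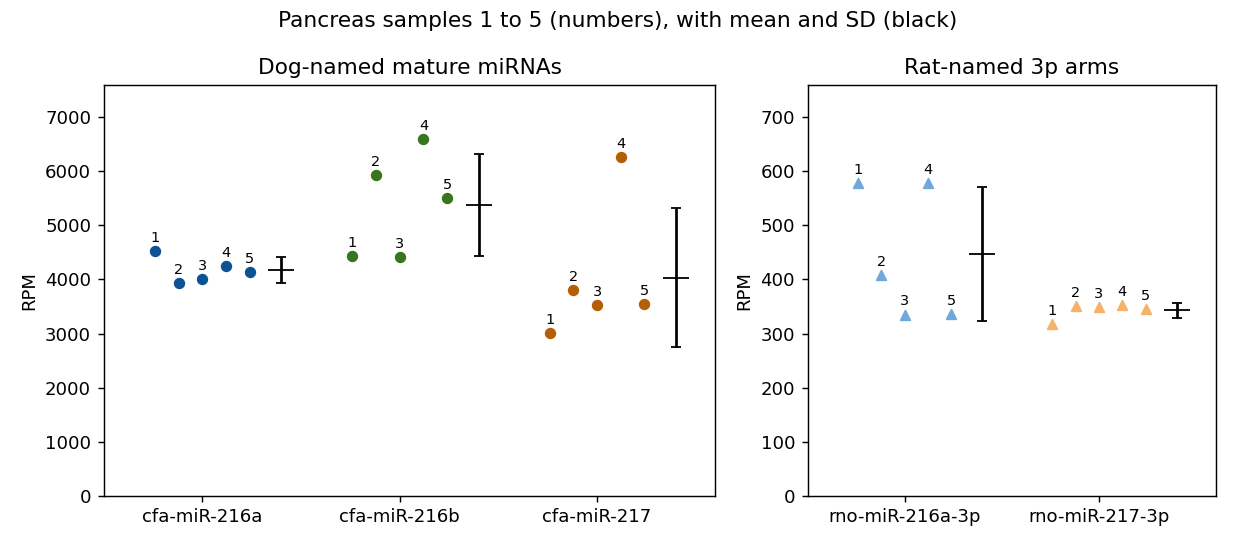
Level in RPM of the 3 dog-named members (left) and of the 2 rat-named 3p arms (right, on its own axis) in each pancreas sample, with the sample number above each point and the mean and SD in black. cfa-miR-216a and rno-miR-217-3p lie close together over the 5 samples, and Pancreas 4 stands above the other samples for cfa-miR-217.

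Mean levels in pancreas were 4171 ± 237 RPM (SD, n = 5) for cfa-miR-216a, 5378 ± 952 RPM for cfa-miR-216b and 4030 ± 1287 RPM for cfa-miR-217. They were 448 ± 124 RPM for rno-miR-216a-3p and 343 ± 14.05 RPM for rno-miR-217-3p. By median level the members ranked 29th (cfa-miR-216a), 22nd (cfa-miR-216b), 34th (cfa-miR-217), 69th (rno-miR-216a-3p) and 75th (rno-miR-217-3p) among the miRNAs of pancreas. The 5 together took 1.26% to 1.80% of the miRNA reads of a pancreas library, with a median of 1.39%.

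The members differed in how evenly they were expressed over the pancreas samples. The coefficient of variation of RPM was 5.69% for cfa-miR-216a and 4.09% for rno-miR-217-3p. For 120 miRNAs with a mean above 100 RPM in pancreas its median was 20.5%, and 4 of them had a lower value than cfa-miR-216a and 2 a lower value than rno-miR-217-3p. The coefficient was 17.7% for cfa-miR-216b, 31.9% for cfa-miR-217 and 27.6% for rno-miR-216a-3p. Counting error alone gives 1.29%, 1.13% and 1.34% for the 3 dog-named members in their order above, 4.06% for rno-miR-216a-3p and 4.48% for rno-miR-217-3p, so rno-miR-217-3p varied no more than its counts allow and the others varied more.

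Without Pancreas 4 the coefficient of cfa-miR-217 was 9.59% (n = 4), and those of the other members were 6.50% for cfa-miR-216a, 15.2% for cfa-miR-216b, 27.7% for rno-miR-216a-3p and 4.44% for rno-miR-217-3p. The evenness of cfa-miR-216a also depended on the total. With the reads of cfa-miR-148a left out of the library totals, its coefficient was 14.4% and that of rno-miR-217-3p 11.3%, while that of cfa-miR-217 was 17.6%. On that scale Pancreas 4 was the lowest of the 5 samples for cfa-miR-216a at 5487 RPM and the highest for cfa-miR-217 at 8116 RPM. What share of the difference of Pancreas 4 is due to its lower cfa-miR-148a was not tested.

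Because cfa-miR-216a, cfa-miR-216b and cfa-miR-217 were read in the same library, their ratios do not depend on depth. The ratio of cfa-miR-216b to cfa-miR-216a ranged from 0.977 to 1.55 and was above 1 in 4 of 5 samples (exact two-sided sign-flip permutation test, p = 0.125, adjusted p = 0.1875 over 3 ratios). The ratio of cfa-miR-217 to cfa-miR-216a ranged from 0.663 to 1.48 and was above 1 only in Pancreas 4 (exact permutation p = 0.5625). cfa-miR-217 was below cfa-miR-216b in all 5 samples, with ratios from 0.639 to 0.952 (exact permutation p = 0.063, adjusted p = 0.1875). With 5 samples this test cannot give a p below 0.063, and none of the 3 ratios passed the adjusted threshold.

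The next comparison set the 5 pancreas samples against all 71 samples of the other 15 tissues, the way tissue enrichment is defined for this atlas. Each pancreas sample was above every sample of every other tissue for all 5 members. Complete separation of this kind was found for 11 of all 650 miRNAs, or 1.69%. The mean of cfa-miR-216a in pancreas was 1276 times the mean of the other samples (3.27 ± 7.19 RPM). The ratio was 1899 for cfa-miR-216b (2.83 ± 4.47 RPM elsewhere) and 3216 for cfa-miR-217 (1.25 ± 2.22 RPM elsewhere). The 3p arms followed at 752 for rno-miR-216a-3p and 1252 for rno-miR-217-3p. For all 5 members the exact rank-sum test (two-sided) gave p = 5.41e-08, the smallest the test allows with its tied zeros if samples are taken as independent, and an adjusted p of 4.40e-06 over the 650 miRNAs. The criterion of an adjusted p under 0.05 and a ratio above 5 was met by 4.15% of the 650 miRNAs. Since the members are known pancreas miRNAs chosen with earlier results in view, their count of 5 out of 5 is a description. Without Pancreas 4 all 5 kept this call and that of the count model below.

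edgeR's quasi-likelihood test of pancreas against the mean of the 15 other tissues called all 5 members higher as well, in a comparison in which 17.8% of the 568 miRNAs tested were called higher and 16.5% lower. The smallest adjusted p was 2.18e-43 for cfa-miR-217 and the largest 1.54e-30 for rno-miR-217-3p. Fitted log2 fold changes were 11.59 for cfa-miR-216a, 11.95 for cfa-miR-216b and 12.56 for cfa-miR-217. Because some tissues had no read of a member, these fitted values depend on the prior count of the fit. With all other samples as a single group the values were 10.18, 11.14 and 11.65.

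A stricter measure was the median in pancreas over the highest single sample of any other tissue. It was 295 for cfa-miR-217 and 275 for cfa-miR-216b, whose highest other sample was Liver 4 in both, at 12.0 RPM (9 reads) and 20.03 RPM (15 reads). It was 81.1 for cfa-miR-216a, whose highest other sample was Plasma 4 at 51.1 RPM (80 reads). Without plasma it was 259 for cfa-miR-216a, with Liver 4 the highest at 16.0 RPM. For the 3p arms it was 76.9 for rno-miR-217-3p, against a single read in Skeletal Muscle 4, and 56.7 for rno-miR-216a-3p, against 7 reads in Sciatic Nerve 1.

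**Figure D2:**
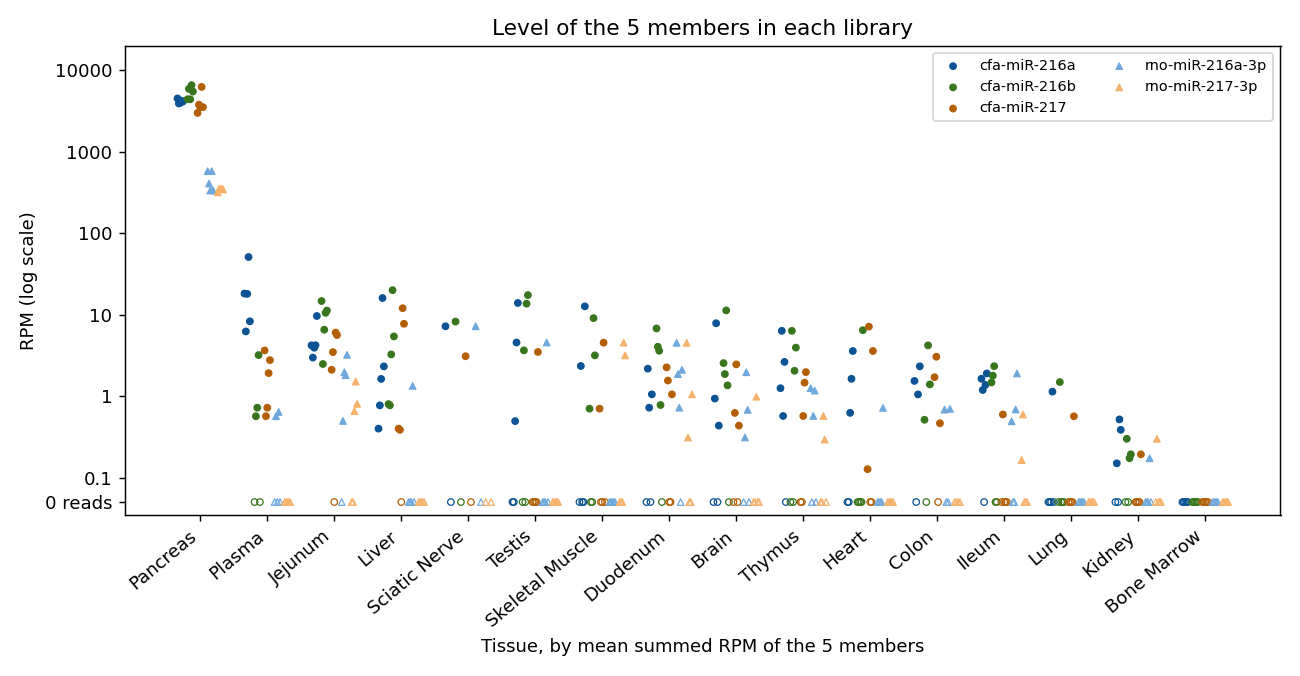
RPM of the 5 members (log axis) in each of the 76 libraries, with tissues ordered by the mean summed RPM of the members, circles for dog-named members and triangles for 3p arms. Open symbols on the lowest line are libraries with 0 reads. The pancreas samples lie above all others. In cfa-miR-216a, 3 of the 5 plasma samples lie above every other non-pancreas sample, while the ranges of plasma and jejunum overlap.

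Outside the pancreas the members were read at trace level. Of 71 libraries, 26 had no read of cfa-miR-216a, 29 none of cfa-miR-216b and 36 none of cfa-miR-217. The 3p arms were at 0 in 45 libraries (rno-miR-216a-3p) and 57 (rno-miR-217-3p). More than 3 reads were found in 20 libraries for cfa-miR-216a, 19 for cfa-miR-216b, 11 for cfa-miR-217, 7 for rno-miR-216a-3p and 1 for rno-miR-217-3p. Most values outside the pancreas therefore rest on 0 to 3 reads, within the range that a count of 0 allows.

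For cfa-miR-216a the order of tissue means after pancreas was plasma (20.4 ± 18.0 RPM), jejunum (4.99 ± 2.65), liver (4.23 ± 6.64), testis (3.80 ± 5.98), sciatic nerve (3.60 ± 5.10, n = 2) and skeletal muscle (3.002 ± 5.50). Thymus (2.16 ± 2.53 RPM), brain (1.84 ± 3.38), colon (1.23 ± 0.97, n = 4), ileum (1.22 ± 0.73), heart (1.17 ± 1.51), duodenum (0.789 ± 0.900), lung (0.227 ± 0.508) and kidney (0.211 ± 0.233) followed. Bone marrow, with 0 reads in all 5 samples, was last. Only pancreas and plasma, the first pair in this order, had ranges that did not overlap, and the other 14 neighbouring pairs overlapped.

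For cfa-miR-216b the order after pancreas was jejunum (9.11 ± 4.71 RPM), testis (6.94 ± 8.09), liver (6.05 ± 8.05), sciatic nerve (4.12 ± 5.82, n = 2), brain (3.41 ± 4.50) and duodenum (3.04 ± 2.72). Skeletal muscle (2.59 ± 3.85 RPM), thymus (2.46 ± 2.71), colon (1.53 ± 1.87, n = 4), heart (1.29 ± 2.88), ileum (1.12 ± 1.07), plasma (0.896 ± 1.33), lung (0.298 ± 0.666) and kidney (0.133 ± 0.131) came next. Plasma thus held position 2 for cfa-miR-216a and position 13 for cfa-miR-216b. For cfa-miR-217 the order after pancreas was liver (4.11 ± 5.48 RPM), jejunum (3.45 ± 2.50), heart (2.17 ± 3.17), plasma (1.92 ± 1.32) and sciatic nerve (1.54 ± 2.18, n = 2). Colon (1.30 ± 1.37 RPM, n = 4), skeletal muscle (1.05 ± 1.97), duodenum (0.972 ± 0.986), thymus (0.801 ± 0.887), brain (0.702 ± 1.02), testis (0.696 ± 1.56), ileum (0.119 ± 0.266), lung (0.113 ± 0.253) and kidney (0.0386 ± 0.0863) followed. For each of the 5 members 14 of the 15 neighbouring pairs overlapped, and the step from pancreas to the next tissue was the one that did not.

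The 3p arms outside the pancreas had tissue means of at most 3.60 RPM for rno-miR-216a-3p (sciatic nerve, n = 2) and 1.54 RPM for rno-miR-217-3p (skeletal muscle). rno-miR-216a-3p was next highest in duodenum (1.84 ± 1.72 RPM), jejunum (1.496 ± 1.28) and testis (0.911 ± 2.04). Its means were 0.615 ± 0.779 RPM in ileum, 0.598 ± 0.606 in thymus, 0.591 ± 0.817 in brain, 0.345 ± 0.398 in colon, 0.267 ± 0.597 in liver, 0.241 ± 0.331 in plasma, 0.143 ± 0.321 in heart and 0.0345 ± 0.0772 in kidney. It had no read in bone marrow, lung or skeletal muscle. rno-miR-217-3p followed in duodenum (1.18 ± 1.92 RPM), jejunum (0.593 ± 0.630), brain (0.196 ± 0.439), thymus (0.173 ± 0.256), ileum (0.152 ± 0.258) and kidney (0.0598 ± 0.134). It had no read in bone marrow, colon, heart, liver, lung, plasma, sciatic nerve or testis.

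Bone marrow was the only tissue with no read of any member in any sample. Its 5 libraries were also among the shallowest, with 162310 to 239023 reads each and 992876 together, for which a count of 0 allows up to 3.02 RPM over the pooled reads. The pooled level of cfa-miR-216a exceeded that limit only in plasma (20.7 RPM), jejunum (4.66 RPM) and sciatic nerve (3.28 RPM) among the other tissues without pancreas. A lower level in bone marrow than in the remaining tissues was therefore not detectable at this depth by counts. The rank-sum test, which does not weigh depth, called cfa-miR-216a lower in bone marrow than in the other non-pancreas samples (exact, adjusted p = 0.0392), while edgeR did not (adjusted p = 0.315).

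The reads outside the pancreas were then compared between tissues with edgeR, each of the 15 tissues against the mean of the other 14 and with pancreas left out of the fit. Of the 75 combinations of member and tissue, 13 were called higher and 0 lower at an adjusted p under 0.05, and 15 had an unadjusted p under 0.05. The 0 lower calls do not show that no tissue was lower. Fitted log2 fold changes of cfa-miR-216a were -4.63 in bone marrow and -3.18 in lung, and neither was called by edgeR. The same contrast called higher from 12.9% (ileum) to 44.9% (brain) of all miRNAs tested in a tissue, so the 13 calls are a description. The shares of all miRNAs called lower, or called by DESeq2 or the rank-sum test outside the pancreas, are not given here. The count of calls on the members depended on the test. With all other non-pancreas samples as a single group, a reference chosen after seeing the data, 1 combination was called, against 4 with DESeq2, among them cfa-miR-216a lower in lung (DESeq2 adjusted p = 0.0155), and 3 with the exact rank-sum test, among them cfa-miR-216a lower in bone marrow. By tissue, the contrast of tissue means called higher 16.8% of all miRNAs tested in bone marrow, 44.9% in brain, 14.1% in colon, 21.7% in heart, 12.9% in ileum, 22.1% in kidney, 15.4% in lung, 30.4% in testis and 17.1% in thymus, where no member was called. The single-group contrast called higher 5.48% in bone marrow, 33.4% in brain, 0.177% in colon, 0% in duodenum and in ileum, 5.3% in heart, 3.36% in kidney and in skeletal muscle, 3.53% in liver, 1.06% in lung, 0.53% in sciatic nerve, 10.8% in testis and 1.24% in thymus, again with no member. Only cfa-miR-216a in plasma was called in every one of these alternatives.

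In plasma cfa-miR-216a was at 18.2, 6.23, 18.0, 51.1 and 8.30 RPM in samples 1 to 5, from 133 reads together. All 5 samples had more than 3 reads, and 3 of them were above every other non-pancreas sample. The mean of 20.4 RPM was 10.3 times the mean of the other 66 non-pancreas samples (1.97 RPM). Plasma 4 held 80 of the 133 reads, and without it the mean was 12.7 RPM and the ratio 6.43. The fitted log2 fold change was 4.71 (edgeR, adjusted p = 1.03e-11), in a comparison in which 27.6% of miRNAs were called higher. As a single-group contrast it was 4.08 (edgeR, adjusted p = 9.57e-07), with 14.3% of miRNAs called higher. The rank-sum test gave an adjusted p of 1.29e-04 (exact), and leaving out any 1 plasma sample left the log2 fold change between 4.15 and 5.001.

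The cluster partners of cfa-miR-216a were not raised to that level in plasma. cfa-miR-216b was at 0, 0.566, 0.721, 3.19 and 0 RPM from 7 reads in all, and was not called (edgeR log2 fold change 0.11, adjusted p = 1). cfa-miR-217 was at 3.64, 0.566, 0.721, 1.92 and 2.77 RPM from 10 reads. It was called by the contrast of tissue means (edgeR log2 fold change 1.97, adjusted p = 0.0303) but not by the single-group contrast (edgeR adjusted p = 0.254), nor without Plasma 1, Plasma 4 or Plasma 5 (edgeR adjusted p = 0.0581, 0.0700 and 0.174). rno-miR-216a-3p had 2 reads in plasma and rno-miR-217-3p none.

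Within the sum of cfa-miR-216a, cfa-miR-216b and cfa-miR-217 reads, the share of cfa-miR-216a set plasma apart. It was 37.9%, 28.7%, 33.5%, 24.8% and 31.4% in the pancreas samples and 83.3%, 84.6%, 92.6%, 90.9% and 75.0% in the plasma samples. The ranges did not overlap, and the difference of the means was 54.0 percentage points. Over summed reads the share was 31.5% in pancreas (95% Wilson interval 31.2% to 31.8%), 88.7% in plasma (82.6% to 92.8%) and 33.1% in the other 14 tissues together (29.2% to 37.4%). Among the 17 libraries of those tissues with at least 10 such reads it ranged from 15% to 55.6% with a median of 36.4%, so none of the 17 reached the plasma range. Some libraries with fewer reads did, such as Skeletal Muscle 5 at 80% (4 of 5 reads). The limit of 10 reads was not applied to plasma, and Plasma 1 had 6 such reads. Plasma was singled out after the values were seen and no test is given. The separate isolation and low integrity of plasma RNA cannot be told apart from plasma itself in this share. All intervals cover counting error only.

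**Figure D3:**
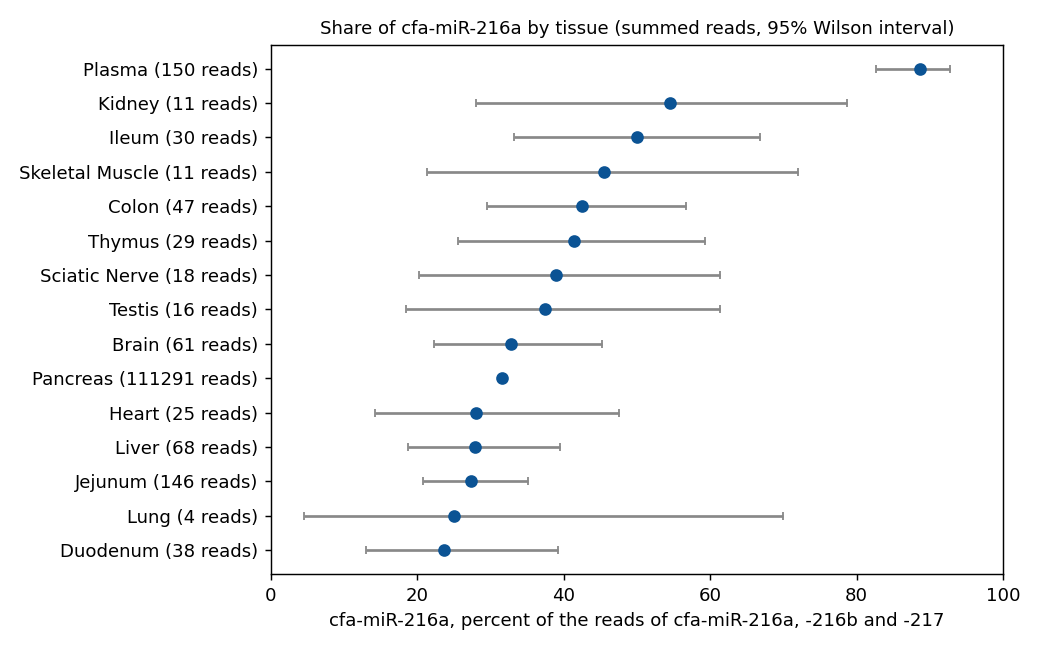
Share of cfa-miR-216a in the summed reads of cfa-miR-216a, cfa-miR-216b and cfa-miR-217 by tissue, in percent, with 95% Wilson intervals and the number of reads in parentheses. Plasma lies at 88.7%, above the intervals of every other tissue shown, and pancreas at 31.5%. Bone marrow has no reads and is not shown.

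Relative to pancreas, the plasma mean was 0.488% of the pancreas mean for cfa-miR-216a, 0.0477% for cfa-miR-217 and 0.0167% for cfa-miR-216b. Without Plasma 4 the value for cfa-miR-216a was 0.304%. For other miRNAs abundant in pancreas it was 0.853% for cfa-miR-148a (3180 ± 588 RPM in plasma), 0.290% for cfa-miR-375 (418 ± 370 RPM), 2.90% for cfa-miR-141 (486 ± 374 RPM) and 0.160% for cfa-miR-200c (2.74 ± 1.32 RPM). Plasma 4, the highest for cfa-miR-216a, was also the highest plasma sample for cfa-miR-375, an islet miRNA, at 1055 RPM against a median of 283 RPM. Its cfa-miR-148a was not raised, at 3333 RPM, which is the plasma median. Blood cell miRNAs were abundant in the plasma libraries, with cfa-miR-451 at 85981 ± 23540 RPM. The part of blood cells in the plasma reads of cfa-miR-216a was not tested.

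Jejunum was the tissue in which all 5 members were called higher by the contrast of tissue means, where 18.6% of miRNAs were called. cfa-miR-216b was at 14.7, 2.48, 6.54, 10.5 and 11.2 RPM from 71 reads, 3.87 times the mean of the other non-pancreas samples (edgeR log2 fold change 2.54, adjusted p = 0.00110). cfa-miR-216a was at 4.21, 2.98, 3.93, 4.22 and 9.64 RPM (1.59 times, edgeR adjusted p = 0.0390), and cfa-miR-217 at 2.10, 3.47, 0, 6.03 and 5.62 RPM (3.17 times, edgeR adjusted p = 0.00140). Every jejunum library held reads of cfa-miR-216a and cfa-miR-216b. The call of cfa-miR-216b held without any 1 jejunum sample (edgeR adjusted p up to 0.00693), whereas that of cfa-miR-216a was lost without Jejunum 2, 3, 4 or 5 (edgeR adjusted p from 0.0547 to 0.197). None of the 5 was called by the single-group contrast, in which 0.353% of miRNAs were called. cfa-miR-216b had an adjusted p of 0.111 there (edgeR), and kept its call with DESeq2 (adjusted p = 0.0221) and the exact rank-sum test (adjusted p = 0.0279). The 3p arms were at 2.84 (rno-miR-216a-3p) and 2.37 (rno-miR-217-3p) times the mean of the other samples, from 14 and 7 reads, and rno-miR-217-3p lost its call without Jejunum 4 (edgeR adjusted p = 0.0900).

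In liver cfa-miR-216b and cfa-miR-217 were called, and Liver 4 was the highest library for both. cfa-miR-216b was at 0.798, 0.771, 3.25, 20.03 and 5.41 RPM and cfa-miR-217 at 0.399, 0.385, 0, 12.0 and 7.73 RPM, with 15 of 28 reads of cfa-miR-216b in Liver 4 while of the 21 reads of cfa-miR-217 Liver 4 held 9 and Liver 5 held 10. They were called higher (edgeR log2 fold changes 2.04 and 2.57, adjusted p = 0.0235 and 0.00133, 20.5% of miRNAs called), but without Liver 4 the log2 fold change was 0.84 for cfa-miR-216b (adjusted p = 0.584) and 1.74 for cfa-miR-217 (adjusted p = 0.0657). DESeq2 kept the call of cfa-miR-217 (adjusted p = 0.0389) but not that of cfa-miR-216b (adjusted p = 0.0994). Liver 4 had 49.4 RPM of the 5 members together against a liver median of 4.88 RPM. Its cfa-miR-375 was the highest of the 5 liver samples at 6334 RPM (liver median 4579). Its cfa-miR-148a was the lowest of the 5 liver samples at 53594 RPM (liver median 68052). The part of pancreas RNA in the members' level of Liver 4 was not tested.

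The remaining calls rested on a handful of reads of the 3p arms. In duodenum rno-miR-216a-3p had 11 reads and rno-miR-217-3p 4 reads (edgeR adjusted p = 0.00206 and 0.0121, 16.4% of miRNAs called), and the second was lost without Duodenum 1 (edgeR adjusted p = 0.103). In sciatic nerve rno-miR-216a-3p had 7 reads, all in 1 of 2 libraries (edgeR adjusted p = 0.00227, 20.8% called), and without that library its log2 fold change turned to -2.13. In skeletal muscle rno-miR-217-3p had 2 reads (edgeR adjusted p = 0.0220, 24.7% called), and the call was lost without either library that held one (edgeR adjusted p = 0.157 and 0.160). None of these was called by the single-group contrast or the rank-sum test, and DESeq2 gave no adjusted p for them.

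The arms of the 2 hairpins with both arms measured were compared next. In pancreas the 3p arm took 11.3%, 9.42%, 7.72%, 12.0% and 7.51% of the reads of both miR-216a arms in samples 1 to 5. For miR-217 it took 9.58%, 8.46%, 9.004%, 5.31% and 8.88%. The 5p arm was thus the main product of both hairpins in every pancreas sample. The mean log2 ratio of 3p to 5p was -3.26 ± 0.34 for miR-216a and -3.51 ± 0.37 for miR-217. The difference within samples was 0.24 ± 0.63, positive in 3 of 5 samples (exact two-sided sign-flip permutation test, p = 0.5625, smallest possible 0.063), and it was -0.02 without Pancreas 4. Whether the arm ratios of the hairpins differ was therefore not resolved by these samples.

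The 3p share of miR-216a was higher than in pancreas in 5 of the 7 other tissues with at least 20 reads, and the intervals of duodenum, jejunum and colon lay wholly above the pancreas share. The 3p share of summed reads was 9.84% in pancreas (exact 95% interval 9.54% to 10.1%) and 26.4% (60 of 227 reads, 20.8% to 32.7%) in the other tissues without plasma. It was 55.0% in duodenum (11 of 20 reads, 31.5% to 76.9%), 25.9% in jejunum (14 of 54 reads, 14.96% to 39.7%) and 5% in liver (1 of 20 reads, 0.127% to 24.9%). Plasma lay at the other end, at 1.48% (2 of 135 reads, 0.180% to 5.25%), below the pancreas interval. In the 7 libraries outside the pancreas with more than 3 reads of each arm the 3p share was 20% to 50%, above all 5 pancreas samples, although the condition on 3p reads keeps libraries with a low 3p share out of this count.

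For miR-217 the 3p share was 8.01% in pancreas (exact 95% interval 7.73% to 8.30%) and 16.0% in the 14 other tissues without plasma (21 of 131 reads, 10.2% to 23.5%). Outside the pancreas only jejunum (7 of 42 reads, 16.7%) and liver (0 of 21 reads, up to 16.1%) had at least 20 reads. These intervals treat reads as independent and pool libraries that differ, so they are descriptions of the summed reads and no test was run.

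**Figure D4:**
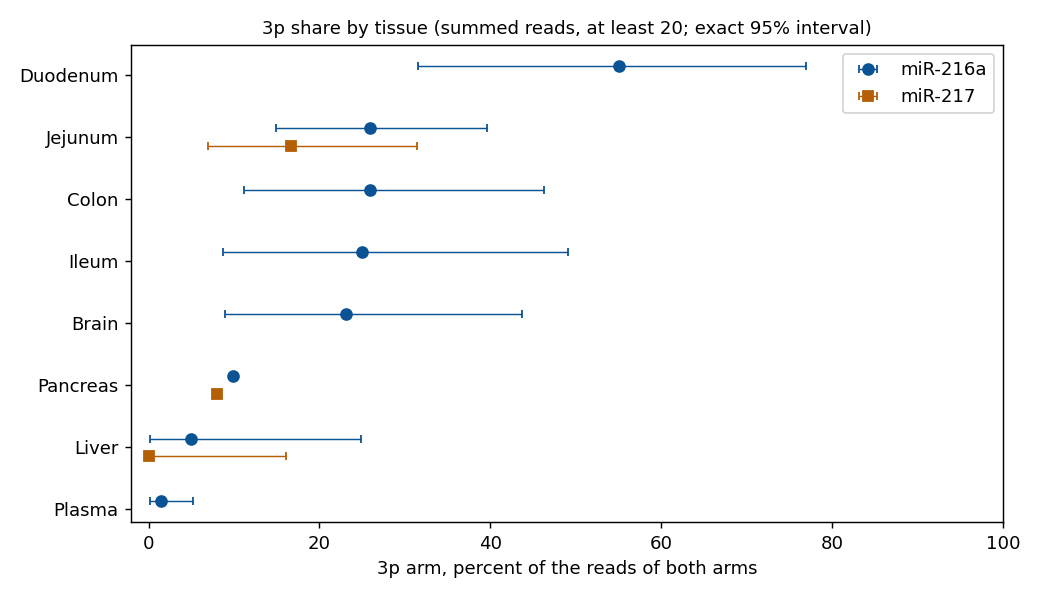
Share of the 3p arm, in percent of the reads of both arms, for miR-216a (circles) and miR-217 (squares) in tissues with at least 20 reads of the hairpin, with exact 95% intervals of the summed reads. Plasma lies lowest at 1.48% and duodenum highest at 55.0% for miR-216a, and pancreas at 9.84%.

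Over all 76 samples the members moved together, with Pearson correlations of log2(RPM + 1) between pairs of members from 0.879 to 0.946. These are carried by the step from pancreas to the rest. Over the 71 samples outside the pancreas they were 0.0893 (cfa-miR-216a with rno-miR-217-3p) to 0.521 (cfa-miR-216b with cfa-miR-217), in sparse counts that share library depth. The miRNAs whose pattern over the 76 samples was most like the mean of the members were cfa-miR-148a (r = 0.705), cfa-miR-802 (0.656), hsa-miR-148a-5p (0.653), cfa-miR-375 (0.639) and hsa-miR-193a-3p (0.548). Each separated pancreas from the other tissues less widely than any member. The median in pancreas over the highest other sample was 14.9 for cfa-miR-375, 5.13 for cfa-miR-148a, 3.88 for cfa-miR-802, 2.66 for hsa-miR-148a-5p and 0.873 for hsa-miR-193a-3p. Spearman's rho over the 76 samples ordered these 5 otherwise, with 0.648 for cfa-miR-375, 0.622 for cfa-miR-802 and 0.377 for cfa-miR-148a. It was 0.323 for hsa-miR-148a-5p and 0.171 for hsa-miR-193a-3p. Outside the pancreas the most alike were cfa-miR-802 (r = 0.490), cfa-miR-375 (0.478), cfa-miR-215 (0.450), hsa-miR-4532 (0.408) and cfa-miR-885 (0.373).

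Of a list of 9 other miRNAs known from pancreas or its epithelium, all were measured. edgeR called 8 higher in pancreas (17.8% of all miRNAs tested were) and 1, cfa-miR-148b, lower (16.5% were), and 4 met the rank-sum and ratio criterion (4.15% did). The list's median log2 fold change was 4.55, against -0.44 for all miRNAs tested. The list was chosen with earlier results of these data known, so these counts are a description. Among the 8, cfa-miR-7 was at 1.10 times its mean elsewhere and had its highest tissue mean in brain. cfa-miR-200a had its highest tissue mean in colon. cfa-miR-375 was at 144294 ± 22338 RPM in pancreas, 83.2 times its mean elsewhere, and cfa-miR-148a at 372981 ± 88565 RPM, 26.9 times its mean elsewhere. The members were less abundant than these, but their ratios to the other tissues were from 752 to 3216. Of the listed markers of other tissues, some were low in the pancreas libraries and others were not. cfa-miR-122 of liver was at 1.34 to 12.6 RPM, cfa-miR-124 of neurons at 0 to 1.89 RPM, cfa-miR-1 and cfa-miR-206 of muscle at 0 to 0.686 RPM each and cfa-miR-133a of muscle at 6.26 to 62.4 RPM. The smooth muscle miRNAs cfa-miR-143 and cfa-miR-145 had means of 20680 and 195 RPM. The blood and bone marrow miRNAs cfa-miR-451, cfa-miR-142, cfa-miR-144 and cfa-miR-223 had means of 1979, 322, 130 and 3.60 RPM. Of the miRNAs of intestinal epithelium, cfa-miR-192 had a mean of 26972 RPM, 0.385 times its mean elsewhere (69989 RPM). Its highest tissue mean was in jejunum. The contrast of log-scale tissue means still called it higher in pancreas (edgeR log2 fold change 1.23, adjusted p = 0.00247). The rank-sum test did not call it (exact, adjusted p = 0.808). cfa-miR-194 and cfa-miR-215 had means of 623 and 91.0 RPM. The part of other cell types in the levels of the members was not tested.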

How the data were processed

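Deposited values came from miR-seq of the tissues described above (TruSeq Small RNA libraries, reads of 36 bases). For the deposited count of each miRNA, reads were adaptor-clipped by the authors, placed on CanFam3.1 with OSA v4 at 0 mismatches, kept if they had at most 10 genomic locations, and counted with bedtools where they covered at least 70% of a locus built from dog, rat and human names in miRBase 21. The deposited RPM column, a depth-scaled signal made by the authors, is the count over all miRNA reads of the library. Recomputed RPM differed by a relative 2.89e-09 at most. Values not listed were set to 0. In the table, 1 sample name, a sciatic nerve pool that matched no label, was not used, and 1 labelled colon sample without values was not analysed here. The study describes the sciatic nerve pooling in different ways in its methods and its results. Replicate numbers follow accession order and only name a sample.

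The members and lists were chosen with earlier results of these data known. Named miRNAs were the 5 members, the 5 most correlated others over all samples and over the samples outside the pancreas, and listed markers. Plasma as a contrast to pancreas in the share of cfa-miR-216a, and Pancreas 4, were singled out after their values were seen. Tests were the exact rank-sum test on midranks with Benjamini-Hochberg adjustment over 650 miRNAs, and edgeR 4.0.16 (TMM, glmQLFit, glmQLFTest) on the counts of miRNAs with at least 10 reads, adjusted within each contrast. DESeq2 1.42.0 was an alternative. Exact permutation tests were used for single values. edgeR steps were tested on simulated data. The software was R 4.3.3 and Python 3.11.15, with matplotlib 3.10.9, scipy 1.17.1, pandas 2.3.3 and numpy 2.4.6. The alternatives were scaling, filter, reference, tissues, test, pseudocount and each replicate left out. The depth per library gives the precision stated in the report. Near-identical loci could not be resolved from counts.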

Additional observations from a re-analysis of the deposited data

Results flagged for a closer look

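In groups of 4 to 10 samples, 15 of 76 combinations of member (or sum of the members) and tissue had 1 sample whose gap to the nearest other exceeded Dixon's 95% value, counting only samples with more than 3 reads. Chance marks about 1 in 20 groups of normally distributed values. Many groups here are sparse counts with zeros, so 15 of 76 cannot be set against that rate. In heart, for example, all samples but Heart 5 had 0 reads of cfa-miR-216b. The members of a library are also not independent of each other. Brain 3 was high for cfa-miR-216a (7.86 RPM), cfa-miR-216b (11.3 RPM), cfa-miR-217 (2.46 RPM) and the sum of the members (24.6 RPM). Liver 4 was high for cfa-miR-216a (16.0 RPM), cfa-miR-216b (20.03 RPM) and the sum (49.4 RPM). Plasma 4 was high for cfa-miR-216a (51.1 RPM), cfa-miR-216b (3.19 RPM) and the sum (56.8 RPM).

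Jejunum 5 (9.64 RPM, 12 reads) and Skeletal Muscle 5 (12.7 RPM, 4 reads) were high for cfa-miR-216a, and Heart 5 (6.45 RPM, 9 reads) for cfa-miR-216b. In pancreas, Pancreas 4 was high for cfa-miR-217 (6274 RPM) and Pancreas 1 was low for rno-miR-217-3p (318 RPM). These are given as values.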

How the results depend on the processing

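No paired analysis was possible because the labels carry no dog or replicate number. All 5 members kept their pancreas call in every alternative of the rank-sum test and of edgeR, the count being 5 without any 1 pancreas replicate as well. The reads outside the pancreas depended on the reference and the test. Against 13 calls in the main test, DESeq2 made 4, of which 3 were among the 13, and the exact rank-sum test made 3, of which 2 were. With all other samples as a single group, an alternative added after seeing the data, 1 call was made, and it was among the 13. The cause was not tested. Leaving out 1 replicate at a time gave 11 to 13 calls. Only the tissue that lost a sample was tested again each time, and the calls in the other tissues were carried over. This range therefore does not show how stable the 13 calls are together. rno-miR-216a-3p in sciatic nerve turned to a log2 fold change of -2.13 without replicate 1, the library that held all its reads, and was 3.87 without replicate 2. The difference between the arm ratios ranged from -0.02 to 0.37 over the replicates left out. The difference in the share of cfa-miR-216a between plasma and pancreas, examined after its values were seen, was 52.2 to 56.6 percentage points without any 1 plasma replicate and 57.2 over summed reads. The ratio of cfa-miR-216a in plasma to the other samples outside the pancreas, 10.3, was 6.43 to 12.1 without any 1 plasma replicate, another alternative added later. The likeness of cfa-miR-148a fell to 0.377 with Spearman's rho. Leaving cfa-miR-148a out of the totals, also added later, raised the ratio of cfa-miR-216a in pancreas to 2039. Depth limits the values outside the pancreas, where most rest on 0 to 3 reads.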
